A study of Mus musculus with 90 samples.

Results

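The comparison described here sets 10 humanized transgenic (TG) mice that inhaled 40 ppm styrene against 10 TG mice that breathed air (0 ppm), and it rests on 20 of the 90 lung arrays of the series. The members were chosen by label alone, as all arrays of TG animals at these doses, with 5 animals per dose after 1 week and 5 after 4 weeks of exposure. The study profiled the whole lung of C57Bl/6 males, all adults, in 3 strains at 0, 40 and 120 ppm, with 1 array per animal and 5 animals in each of 18 groups. Animals inhaled styrene or air for 6 h on each of 5 days a week, and the lungs were collected on the morning after the final exposure. All TG mice, controls included, lack the mouse gene Cyp2f2 and carry human transgenes that the labels write as CYP2F1, SA13 and 2B6. The promoters of the transgenes, the cells that express them and the age of the animals in weeks were not stated in the material at hand, and no measurement of the human transcripts was used. The strains set beside TG were wild type (WT) and the Cyp2f2 knockout without the human genes (KO), each with the same doses, weeks and numbers of animals.

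Styrene is oxidised in the lung by cytochrome P450 enzymes to styrene oxide and to ring-hydroxylated products. In the mouse airway much of this activity comes from Cyp2f2, an enzyme of club cells, the secretory cells that line the small airways. CYP2F1 is the human counterpart of Cyp2f2, so the TG lung asks how the airway responds to styrene when the human enzymes stand in for the mouse one.

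The labelled tissue and genotype were checked first. The club cell secretoglobin Scgb1a1 lay between 13.61 and 13.93 log2 in TG controls and between 13.62 and 13.89 in exposed TG lungs, near the highest value of all arrays, 14.01. The surfactant gene Sftpc of alveolar type II cells and the alveolar type I marker Ager were present in all, with lowest values of 13.67 and 13.40 in TG controls. Cyp2f2 measured between 11.63 and 12.05 log2 in TG controls and between 11.69 and 12.13 in exposed TG animals, below the 13.21 to 13.39 of WT controls and within the 11.53 to 12.28 of unexposed and exposed KO lungs. Its 40 ppm change in TG lungs was 0.06 (SE 0.06, adjusted p = 0.836). A single probe set measures Cyp2f2, and where it lies with respect to the deletion was not stated, so the remaining signal says nothing on how much transcript is left. In 1 animal, TG animal 3 at 40 ppm and 4 weeks, transcripts of skeletal muscle and of stratified squamous epithelium stood far above those of the other 19 TG animals, and TG control animal 3 at 4 weeks was high in fat and B cell transcripts. Values that these 2 animals touch are given where they occur.

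No gene passed an adjusted p under 0.05 between 40 ppm and control TG lungs when weeks were averaged (0 of 17097 genes, 0%, limma with Benjamini-Hochberg adjustment, 10 animals per dose). The lowest adjusted p was 0.124, and 1527 genes (8.93%) had an unadjusted p under 0.05, 932 of them higher (5.45%) and 595 lower (3.48%) at 40 ppm. The median change over all genes was 0.016 log2. The count of 0 depended on how the arrays were weighed: with array weights 134 genes passed (102 higher, 32 lower), with arrays of weight under 0.25 left out 13 passed, and without TG control animal 1 at 4 weeks 18 did. The fit was precise enough to bound the measured change of most genes: the 95% interval lay within 1.5-fold in either direction for 16571 genes (96.9%) and within 2-fold for 17020 (99.5%). These shares include genes near the floor of the arrays, where a change may not show. Only 42 genes had a measured change over 1.5-fold, and 4 had one over 2-fold. For no gene did the 10 exposed animals all lie on 1 side of the 10 controls. Where nothing says otherwise, a change is the difference of log2 group means averaged over the 2 weeks, with its SE from limma, and a measured value that did not pass is given as a value.

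The 15 genes with the smallest p are named here as values that did not pass. L1cam, a neural cell adhesion molecule, led them. In TG controls it measured 5.71, 5.96, 5.93, 5.99 and 5.60 log2 at 1 week and 6.54, 6.25, 5.93, 6.03 and 6.17 at 4 weeks. In exposed TG animals it measured 6.28, 6.42, 5.87, 6.54 and 6.22 at 1 week and 6.46, 6.24, 6.62, 6.45 and 6.45 at 4 weeks. At 1 week 4 of 5 exposed animals lay above every 1-week control, whereas at 4 weeks the groups overlapped. The mean change of L1cam was 0.34 (1.27-fold, SE 0.08, adjusted p = 0.124), against -0.10 in KO and -0.17 in WT lungs, and the TG change differed from the WT change by 0.51 (SE 0.11, adjusted p = 0.00548). The mean of TG controls, 6.01 ± 0.27 (SD, n = 10), was below that of WT (6.29 ± 0.16) and KO controls (6.29 ± 0.19), while exposed TG lungs were at 6.35 ± 0.21 (SD, n = 10 for each).

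Rnaseh2b, a subunit of the ribonuclease that removes ribonucleotides from DNA, measured 7.24, 6.88, 7.25, 7.18 and 7.01 in TG controls at 1 week and 7.38, 7.38, 7.45, 7.46 and 7.37 in exposed animals, with no overlap. At 4 weeks controls measured 7.42, 7.07, 6.55, 6.89 and 6.94 and exposed animals 7.42, 7.68, 7.35, 7.70 and 7.84, and control animal 1 lay among the exposed. Its change was 0.46 (1.38-fold, SE 0.10, adjusted p = 0.124), beside 0.04 in KO and 0.34 in WT lungs, where it rose (adjusted p = 0.0416). Olfml1, which encodes a secreted olfactomedin-like protein, had the largest positive value of the 15, 0.51 (SE 0.12, adjusted p = 0.137), from a control median of 5.81 to an exposed median of 6.37. Crispld1, a secreted cysteine-rich protein, was at 0.28 (SE 0.06) with 8 of 10 exposed animals above every control, but its control means were dim, that is, below 4.42 log2, the lowest array median of the series. Mapk8, the stress kinase JNK1, was at 0.30 (SE 0.07), with exposed TG animals between 6.88 and 7.35 and control animals between 6.08 and 7.13.

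The other values above 0 were 0.29 for Utp20, a factor of ribosome assembly, 0.32 for Pqlc3, 0.32 for Epb41l5, a cytoskeletal protein of epithelial polarity, 0.24 for Exoc6b, an exocyst subunit, 0.28 for Snapin, a protein of vesicle fusion, 0.27 for Mkks, a chaperonin-like ciliary protein, and 0.18 for Cwc15, a splicing factor. Below 0 lay Npas2 (-0.85, described next), the antisense transcript Atcayos (-0.33) and Mgat4d (-0.23), and the last 2 were dim, with TG control medians of 2.99 and 3.06. Some values were smaller in another setting of the fit, down to 0.047 for Epb41l5, 0.10 for Exoc6b, 0.13 for Mkks and 0.19 for L1cam. Rnaseh2b stayed at 0.41 or above and Olfml1 at 0.44 or above. With 1 animal left out, several values were lowest without TG control animal 3 at 4 weeks. These were Rnaseh2b (0.41), Olfml1 (0.45), Epb41l5 (0.29), Crispld1 (0.25), Mkks (0.24), Mapk8 (0.21) and Cwc15 (0.16). In the fit over all arrays, all 15 had adjusted p between 0.124 and 0.162. Of these genes, L1cam, Atcayos, Crispld1, Utp20, Mgat4d, Mapk8 and Cwc15 also differed from WT in their 40 ppm change (TG minus WT between -0.40 and 0.51, adjusted p between 0.00336 and 0.0463), and none of them passed in WT lungs alone. This call was lost for Atcayos, Utp20, Mapk8 and Cwc15 without some single animals (highest adjusted p between 0.0649 and 0.11). In at least 1 other setting of the fit it was lost for Atcayos, Crispld1 and Utp20 (highest adjusted p 0.316, 0.11 and 0.0511). Zc2hc1b, chosen after its values were seen, was the 1 gene whose exposed animals all lay beyond the controls in the same direction at each week (0.00585% of genes). Its exposed values were 2.64 to 2.73 at 1 week and 2.48 to 2.61 at 4 weeks, against controls of 2.84 to 3.06 and 2.62 to 2.80, so that every group mean was dim, and its change was -0.20 (SE 0.07, adjusted p = 0.359). Groups without overlap in either direction were found for 0.678% of genes at 1 week and 1.6% at 4 weeks.

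Of the 37 gene lists measured, that of the circadian clock held the most genes at an unadjusted p under 0.05. In this oscillator Arntl, with its partner Clock or Npas2, activates genes through E-boxes, among them Per and Cry, whose proteins switch the activators off. Rev-erb receptors (Nr1d1, Nr1d2) repress Arntl and Npas2 through ROR elements, and the factors Dbp, Tef and Hlf act at D-boxes against the repressor Nfil3. The lung keeps its own rhythm of these transcripts, so their level in a tissue depends on the time of collection, and the hour at which each animal was killed was not stated.

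The promoters of an activator and of a D-box target are shown because the measured changes of these 2 genes had opposite signs. They are the RefSeq windows of GRCm38.p6 from 250 bases before to 50 after the start, read 5′ to 3′ on the gene's strand, Arntl at chr7:113207215-113207514 (plus strand) and Per3 at chr4:151044616-151044915 (minus strand). Capitals mark matches, on either strand, to TTANGTAA (D-box), TNGGTCA and CACGTG (E-box), where N is any base. TNGGTCA is a looser pattern than the core of the ROR element, so its matches are not taken as ROR elements.
Arntl: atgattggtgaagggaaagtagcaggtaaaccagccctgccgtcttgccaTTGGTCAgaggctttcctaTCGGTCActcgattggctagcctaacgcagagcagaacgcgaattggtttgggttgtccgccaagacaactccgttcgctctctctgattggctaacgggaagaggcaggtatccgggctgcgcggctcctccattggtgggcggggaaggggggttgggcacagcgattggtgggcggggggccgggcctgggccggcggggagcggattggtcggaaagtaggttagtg
Per3: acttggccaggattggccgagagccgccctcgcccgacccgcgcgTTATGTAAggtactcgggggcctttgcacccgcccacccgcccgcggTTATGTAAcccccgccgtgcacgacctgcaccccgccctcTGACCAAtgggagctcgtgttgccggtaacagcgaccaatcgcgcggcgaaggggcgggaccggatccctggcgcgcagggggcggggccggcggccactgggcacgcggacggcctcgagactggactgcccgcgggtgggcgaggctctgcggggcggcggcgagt
In the Arntl window TNGGTCA starts at bases 51 and 70, and in the Per3 window TTANGTAA starts at bases 46 and 93 and TNGGTCA on the opposite strand at base 133. Another Arntl window, not shown, held a further match to TNGGTCA at its base 281. Of 32851 mouse promoter windows of this length, 11.0% held TNGGTCA, 2.32% TTANGTAA and 7.15% CACGTG, and the 3 motifs do not overlap in the windows shown. Of the 17 clock genes measured, 15 had a window, and in any window of the gene 5 held TNGGTCA, 5 CACGTG and 1, Per3, TTANGTAA. Some genes, Arntl and Tef among them, have more than 1 window, so these counts per gene are not comparable with the shares per window. A match is a run of letters and not a measured binding site.

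Among the activators, Npas2 measured 5.72, 5.99, 6.01, 5.46 and 6.34 log2 in TG controls at 1 week and 5.79, 5.82, 5.02, 5.43 and 4.71 at 40 ppm. At 4 weeks controls measured 6.24, 6.28, 5.77, 5.82 and 5.79 and exposed animals 5.43, 5.51, 5.07, 4.25 and 3.88. The doses overlapped at 1 week and were apart at 4 weeks, where all 5 exposed animals lay below every control. The change of Npas2 was -0.85 (1.80-fold lower, SE 0.20, 95% interval -1.25 to -0.45, adjusted p = 0.143).

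Arntl, whose promoter is shown above, measured 7.28, 7.56, 7.35, 6.85 and 6.80 in 1-week controls and 7.20, 6.96, 6.59, 7.03 and 6.59 in 1-week exposed TG animals. Its 4-week values were 7.87, 7.73, 6.94, 7.30 and 7.33 without and 6.71, 6.85, 7.21, 6.18 and 5.71 with styrene, and 4 of the 5 exposed animals lay below every control. Its change of -0.60 (1.51-fold lower, SE 0.20, adjusted p = 0.378) did not pass.

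Of the output factors, Dbp had the largest positive change of all genes tested, 1.17 (2.25-fold, SE 0.30, 95% interval 0.56 to 1.77, adjusted p = 0.177). Its TG controls were widely spread, at 6.26, 4.87, 6.36, 7.39 and 7.67 at 1 week and 4.39, 5.07, 6.49, 6.65 and 6.42 at 4 weeks. Exposed TG animals measured 6.94, 6.94, 7.09, 6.51 and 7.78 at 1 week, where 4 of 5 lay within the range of the controls and animal 5 above it, and 7.61, 7.23, 6.70, 8.15 and 8.31 at 4 weeks, all above the controls. Hlf was at 0.62 (SE 0.17, adjusted p = 0.271) and Tef, chosen after its values were seen, at 0.36 (SE 0.11, adjusted p = 0.312). Nfil3, the repressor at the same sites, was at -0.48 (SE 0.18, adjusted p = 0.434), with a control range of 6.28 to 7.46 and an exposed range of 5.39 to 7.27.

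Per3, whose promoter holds both D-box matches, measured 7.35, 6.98, 7.07, 7.63 and 7.46 in 1-week controls and 7.55, 7.33, 7.62, 7.68 and 7.91 in 1-week exposed TG animals. At 4 weeks it measured 6.83, 6.96, 7.20, 7.71 and 7.56 in controls and 8.07, 7.79, 7.72, 8.32 and 8.56 in exposed animals, so the doses overlapped at 1 week and were apart at 4 weeks. The change was 0.58 (1.49-fold, SE 0.15, adjusted p = 0.162). Without 1 animal it lay between 0.52 and 0.64. In the other settings of the fit it lay between 0.24 and 0.60 (highest adjusted p = 0.713). Among the other repressors, Nr1d2 was at 0.58 (SE 0.21, adjusted p = 0.405), Cry1, chosen after its values were seen, at -0.41 (SE 0.11, adjusted p = 0.192), Per2 at 0.21 (SE 0.18, adjusted p = 0.779) and Per1 at -0.0010 (95% interval -0.32 to 0.32).

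**Figure D1:**
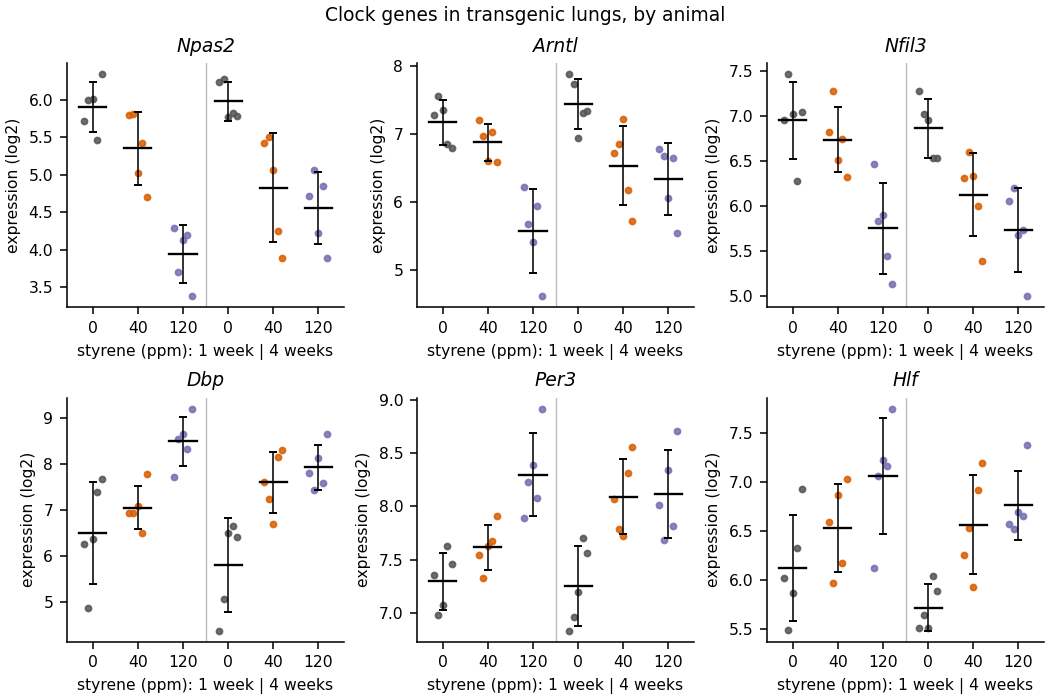
Expression (log2) of the activators Npas2 and Arntl, the repressor Nfil3, the output factors Dbp and Hlf and the repressor Per3 in TG lungs at 0, 40 and 120 ppm, for 1 week (left of the line) and 4 weeks (right). Each point is 1 animal, the bar is the mean of 5 animals and the whisker its SD; at 4 weeks the 40 ppm animals of Npas2, Dbp and Per3 do not overlap the controls, and at 1 week they do.

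Of the 17 clock genes measured, 6 were higher and 4 lower at an unadjusted p under 0.05, or 10 of 17 beside 8.93% of all genes, and 0 passed the adjustment. The list median was 0.07, since its members lie on both sides of 0. The clock values were larger at 4 weeks than at 1 week, with Dbp at 1.80 and 0.54, Npas2 at -1.15 and -0.55, Arntl at -0.90 and -0.29 and Per3 at 0.84 and 0.32, but the difference between weeks did not pass for any of the 4 (adjusted p = 1 for each, limma). With array weights, 4 of the 17 passed as higher and 2 as lower, beside 134 of all 17097 genes in either direction. In each of the other settings tried, and with every single TG animal of these groups left out in turn, 0 clock genes passed.

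The values of the clock genes at the higher dose and in the other strains are given side by side, since the 2 TG doses share their controls. At 120 ppm in TG lungs, Npas2 fell by 1.69 (adjusted p = 3.17e-08) and Arntl by 1.35 (adjusted p = 2.56e-05), and Dbp rose by 2.05 (adjusted p = 1.98e-05) and Per3 by 0.93 (adjusted p = 6.44e-05), where 0.275% of all genes passed. In WT lungs at 40 ppm, Dbp rose by 3.05, Per3 by 1.21, Hlf by 1.01 and Tef by 0.75, while Arntl fell by 2.03, Npas2 by 1.79 and Nfil3 by 1.00 (adjusted p between 6.84e-12 and 0.00015). In KO lungs at 40 ppm, Dbp was at 0.67, Npas2 at -0.31, Arntl at -0.29 and Per3 at 0.24. The median of Npas2 was 5.91 in TG controls, 5.25 at 40 ppm and 4.21 at 120 ppm, and the direct difference between the 2 doses was not called for any gene (0 of 17097, lowest adjusted p = 0.24, 1678 genes or 9.81% at an unadjusted p under 0.05). The TG change was smaller than the WT change for Dbp (-1.88, SE 0.43, adjusted p = 0.0139) and for Arntl (1.44, SE 0.29, adjusted p = 0.00381), where the difference itself was tested. For Npas2 (0.93, adjusted p = 0.0953), Per3 (-0.63, adjusted p = 0.133), Hlf (-0.39, adjusted p = 0.473) and Cry1 (0.063, adjusted p = 0.878) it did not pass. Against KO, none of the clock genes passed, with TG minus KO at 0.50 for Dbp and -0.54 for Npas2.

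Genes that changed at 40 ppm in WT lungs were then followed in the TG lung. In WT animals 521 genes rose and 132 fell (653 of 17097, 3.82%, with 3.05% higher and 0.772% lower, limma). Over the 521 that rose, the median change was 0.405 in WT, 0.024 in TG and 0.038 in KO lungs. Over the 132 that fell it was -0.36 in WT, 0.0042 in TG and -0.024 in KO. In TG lungs 305 of the 521 (58.5%) had a change above 0, where 56.4% of all genes did, and 65 of the 132 (49.2%) had one below 0, where 43.6% of all genes did. At an unadjusted p under 0.05 in the same direction lay 31 of the 521 (5.95%), beside 5.45% of all genes, and 18 of the 132 (13.6%), beside 3.48%. The WT genes with the smallest p in TG were Rnaseh2b, Npas2, Per3, Dbp, Cry1, Hlf and Tef, 6 of them clock genes. Only 2 of the 521 and 2 of the 132 passed 1.5-fold in the same direction in TG lungs, beside 115 and 23 in WT.

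**Figure D2:**
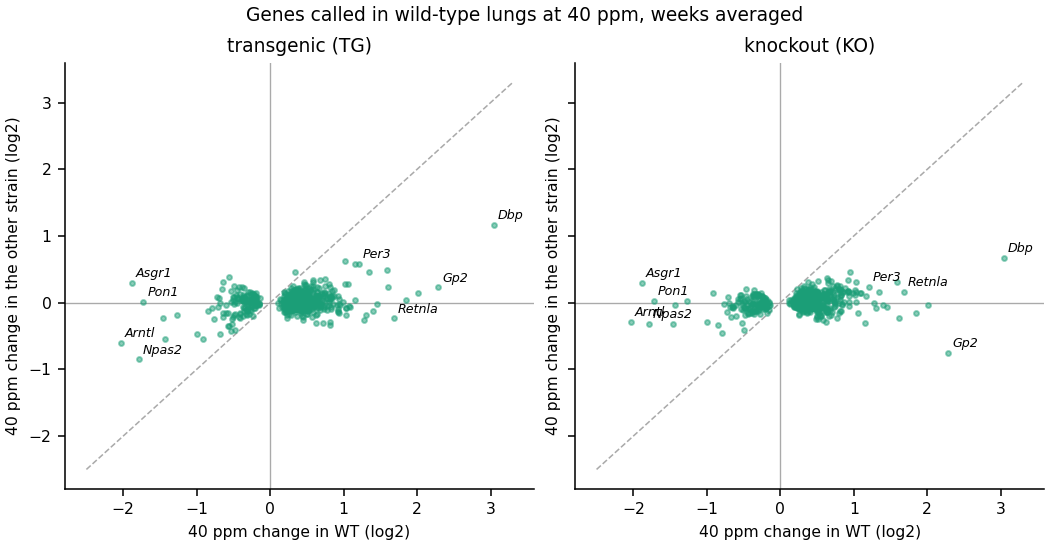
Change at 40 ppm, weeks averaged (log2), of the 653 genes that passed in WT lungs, with the WT change on the horizontal axis and the TG change (left) or KO change (right) on the vertical axis. The dashed line marks equal change; most genes lie near 0 in TG and KO lungs, and Dbp, Per3, Arntl and Npas2 are among the TG points farthest from 0.

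The difference in response between TG and WT lungs was tested directly. It passed for 153 genes (0.895%), 39 with a higher (0.228%) and 114 with a lower (0.667%) change in TG. Over the 114 the median change was -0.086 in TG, 0.55 in WT and 0.041 in KO, and 110 of them had the larger change in WT. Over the 39 the medians were 0.15, -0.28 and 0.010, and 28 had the larger change in WT. These medians describe genes picked by the difference itself. The count moved with single animals, from 60 without WT control animal 2 at 1 week to 222 without TG control animal 1 at 1 week, and was 87 without TG animal 3 at 40 ppm and 4 weeks.

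Among enzymes, Ces1g, a carboxylesterase of lipid and drug metabolism, had median levels of 5.24 in WT controls and 7.13 in WT exposed lungs, a rise of 2.01 (4.02-fold, adjusted p = 9.74e-18). In TG lungs its medians were 3.31 and 3.50, and no TG animal at either dose exceeded 3.86, so the gene was dim with and without styrene. The TG change was 0.14 (95% interval -0.15 to 0.44) and differed from the WT change by -1.86 (SE 0.21, adjusted p = 1.88e-09). Pon1, a lactonase that protects lipids from oxidation, lay between 10.92 and 11.59 in WT controls and fell by 1.72 to a range of 8.37 to 10.32 at 40 ppm. In TG lungs it lay between 10.53 and 11.24 in controls and between 10.67 and 11.02 at 40 ppm, a change of 0.016 (95% interval -0.26 to 0.29). The difference of 1.74 (SE 0.20, adjusted p = 1.88e-09) came with exposed TG animals that lay within the control range without exception. Aox3, an aldehyde oxidase on the club cell list, was at 0.092 in TG and fell by 0.51 in WT (difference 0.60, adjusted p = 0.00456).

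Among secreted and receptor genes, Retnla, a resistin-like protein of alternatively activated macrophages and airway epithelium, rose by 1.68 in WT and was at -0.24 in TG (difference -1.92, SE 0.31, adjusted p = 0.00012). Wfdc3, a whey acidic protein family member, rose by 1.46 in WT and was at -0.019 in TG, with TG controls between 4.40 and 5.29 and exposed TG animals between 4.59 and 5.14. Ghrl, the precursor of the hormone ghrelin, rose by 1.40 in WT and was at -0.13 in TG, where it was dim. Agr2, a disulfide isomerase of mucus-producing cells, rose by 1.85 in WT and was at 0.040 (SE 0.33) in TG, but its weeks lay apart in TG, at -0.64 after 1 week and 0.72 after 4 weeks (unadjusted p of the difference 0.0417, adjusted p = 1). Gp2, a glycoprotein of antigen-sampling epithelium, rose by 2.29 in WT and was at 0.23 (SE 0.38) in TG, where it was dim. Lcn2, an iron-binding protein of inflamed epithelium and neutrophils, rose by 1.09 in WT and was at -0.067 in TG. Asgr1, a glycoprotein receptor subunit, fell by 1.88 in WT and was at 0.30 in TG (difference 2.18, SE 0.32, adjusted p = 1.15e-05), and Adm, the gene of the vasodilator adrenomedullin, fell by 1.26 in WT and was at -0.18 in TG. Nr4a3, an immediate early nuclear receptor, fell by 1.46 in WT on its brightest probe set and was at -0.24 in TG, a difference of 1.22 (adjusted p = 0.0368) that became -0.25 (adjusted p = 0.332) with the median of its 3 probe sets. The difference between TG and WT missed the threshold without some single animals for Agr2, Gp2, Adm and Nr4a3 (highest adjusted p between 0.0753 and 0.0851).

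**Figure D3:**
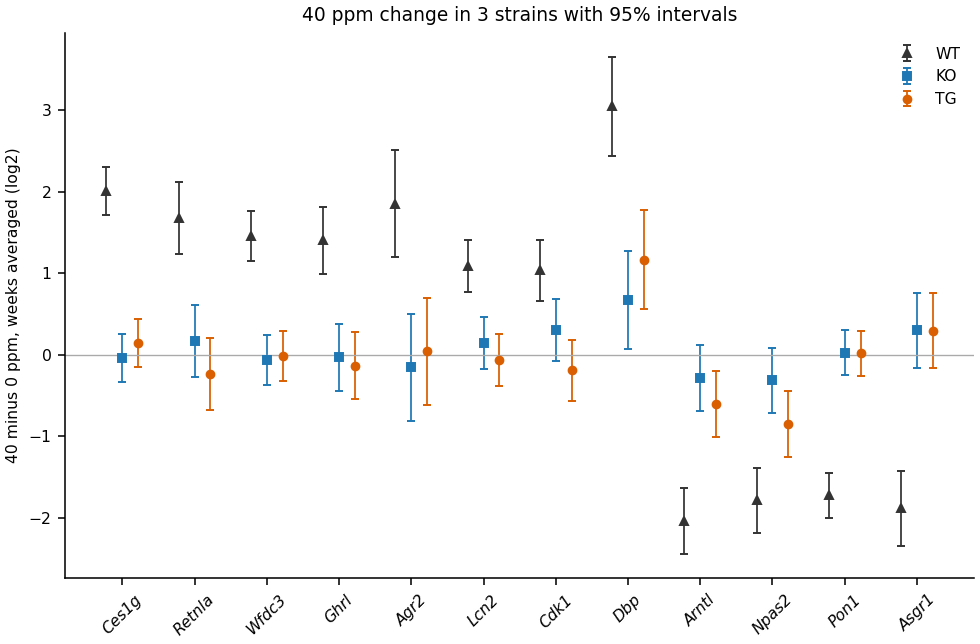
Change at 40 ppm, weeks averaged (log2), of 12 genes in WT (triangles), KO (squares) and TG lungs (circles), with 95% intervals from limma (10 animals per dose and strain). For Ces1g, Retnla, Wfdc3, Ghrl, Agr2, Lcn2, Cdk1, Pon1 and Asgr1 the TG and KO intervals hold 0 and the WT intervals do not, and for Dbp, Arntl and Npas2 the TG value lies between those of KO and WT.

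Genes of cell division rose in WT lungs. Of 29 measured, 16 rose in WT (median 0.57, beside 3.05% of all genes), whereas in TG 0 passed. At an unadjusted p 0 were higher and 1 was lower in TG, beside 5.45% and 3.48% of all genes. The TG median was 0.030, and -0.020 without TG animal 3 at 40 ppm and 4 weeks, and in KO the median was 0.10. The TG change was below the WT change for 8 of the 29 (beside 0.667% of all genes in that direction), among them Cdk1, the kinase of mitotic entry (-1.22, adjusted p = 0.00851), Ube2c (-1.14), Cdc20 (-1.14), both of the anaphase-promoting machinery, and the mitotic kinase Pbk (-1.10). Cdk1 measured 5.10, 5.82, 5.89, 5.64 and 6.46 in TG controls at 1 week and 5.16, 5.96, 5.54, 5.88 and 5.83 in exposed TG animals, and at 4 weeks 5.84, 5.73, 5.89, 5.73 and 5.57 without and 5.43, 5.74, 5.52, 5.23 and 5.49 with styrene. The doses overlapped at each week, and the change of -0.19 had a 95% interval of -0.57 to 0.19. WT lungs at 40 ppm ranged from 5.69 to 8.34. The proliferation marker Mki67 was at 0.023 (SE 0.24) in TG. Of 25 DNA replication genes, 14 rose in WT (median 0.40, beside 3.05% of all genes) and 0 passed in TG, where 2 were higher at an unadjusted p (beside 5.45% of all genes). The TG median was 0.042, and 0.079 without TG animal 3 at 40 ppm and 4 weeks, and the origin-licensing genes Cdc6 (-0.90) and Mcm2 (-0.61) had lower changes in TG than in WT. Without some single animals the calls of Cdc20, Cdc6 and Mcm2 were lost (highest adjusted p between 0.0834 and 0.0993). On its second probe set Mcm2 had the opposite sign in TG lungs.

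Of 15 alveolar type II cell markers measured, 6 rose in WT (median 0.14, beside 3.05% of all genes) and 0 passed in TG (median -0.020, 2 lower at an unadjusted p, beside 3.48% of all genes, and 0 without TG animal 3 at 40 ppm and 4 weeks). The chitinase-like gene Chil1 (-0.49), the mucin Muc1 (-0.45), the surfactant protein Sftpd (-0.23) and the phosphate carrier Slc34a2 (-0.23) had lower changes in TG than in WT (adjusted p between 0.00861 and 0.0481), but without some single animals Sftpd and Slc34a2 did not pass (highest adjusted p 0.117 and 0.0561). Club cell markers had a median of 0.031 in TG, with Scgb1a1 at 0.027 (SE 0.037) and Scgb3a2 at 0.041 (SE 0.042), and endothelial markers one of -0.025, with Pecam1 at -0.045 and the junction gene Cldn5 at -0.24 (SE 0.085, adjusted p = 0.395). In whole lung, fewer cells of a type and less RNA per cell cannot be told apart. Mucous cell markers had a TG median of -0.035, and Clca1, a secreted goblet cell protein, held the lowest value of all genes tested, -1.64 (SE 0.70, adjusted p = 0.46), with control animals spread from 3.12 to 8.83 and exposed animals from 2.47 to 6.07. At 1 week Clca1 measured 4.56, 7.86, 7.27, 8.83 and 8.08 in TG controls and 5.01, 3.55, 2.47, 4.98 and 4.62 at 40 ppm, so that 4 of 5 controls lay above every exposed animal. At 4 weeks the doses overlapped and the value was -0.091, and KO and WT lungs were at 0.050 and 1.90 (neither passed).

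The response of TG lungs was not shown to differ from that of KO lungs for any gene. TG minus KO passed for 0 of 17097 genes (lowest adjusted p = 0.782, limma), with 1043 genes (6.1%) at an unadjusted p under 0.05. The 95% interval of the difference lay within 1.5-fold for 15008 genes (87.8%) and within 2-fold for 16764 (98.1%), genes near the floor of the arrays included. In KO lungs themselves 0 genes passed and 748 (4.38%) had an unadjusted p under 0.05. Among the WT responders TG minus KO was -0.0092 for Pon1 (adjusted p = 0.995), 0.18 for Ces1g (adjusted p = 0.844), 0.049 for Wfdc3 (adjusted p = 0.965) and -0.10 for Ghrl (adjusted p = 0.944). For others it was wider and did not pass either, at 0.98 for Gp2, -0.58 for Ube2c, 0.50 for Dbp, -0.49 for Cdk1 and -0.40 for Retnla (adjusted p between 0.782 and 0.796). TG control animal 3 at 4 weeks stood apart in Gp2 (2.434) and Ube2c (6.778), and its part in these values was not tested. The widest list medians of TG minus KO outside muscle and squamous epithelium were those of neutrophil markers (0.255) and of glucocorticoid-responsive genes (-0.215). No gene of either list passed.

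Lower values at an unadjusted p were most frequent on lists of stress and hormone genes. Of 19 glucocorticoid-responsive genes, 6 were lower and 0 higher at an unadjusted p (median -0.21), beside 3.48% and 5.45% of all genes, and 0 passed. Without TG animal 3 at 40 ppm and 4 weeks 4 were lower. The 6 include Cdkn1a, a cell cycle inhibitor (-0.54, SE 0.19), Ddit4, an inhibitor of mTOR signalling (-0.51, SE 0.19), the lipoprotein lipase inhibitor Angptl4 (-0.60, SE 0.28) and Pdk4, a kinase that spares glucose (-0.55, SE 0.24). Cdkn1a is also on the p53 target list, and the glucocorticoid target Fkbp5 was at -0.28 (limma, unadjusted p = 0.372). Angptl4 and Pdk4 are also PPAR targets, and of the 21 PPAR and fatty acid oxidation genes 5 were lower (beside 3.48% of all genes) and 0 higher (median -0.046), with the thioesterases Acot2 at -0.54 (SE 0.17) and Acot1 at -0.53 (SE 0.17). The glucocorticoid list had a median of 0.088 in KO and -0.29 in WT lungs, and TG minus KO was -0.97 for Angptl4 and -0.70 for Pdk4 (adjusted p = 0.782 for each). TG control animal 5 at 1 week, whose array had a weight of 0.155, held the highest list means, 9.90 for glucocorticoid-responsive genes and 8.53 for PPAR targets and fatty acid oxidation, and with the arrays of weight under 0.25 left out, this one among them, the medians were -0.176 and -0.023.

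Of 16 heat shock and cold-inducible genes, 5 were lower at an unadjusted p (beside 3.48% of all genes) and 0 higher (median -0.13), and the median was 0.023 at 1 week and -0.375 at 4 weeks. The small heat shock protein Hspb1 measured 12.08, 12.10, 12.05, 12.24 and 12.21 in 4-week TG controls and 11.08, 11.46, 11.62, 11.55 and 11.83 in 4-week exposed animals, without overlap. At 1 week its ranges of 11.59 to 12.07 and 11.33 to 12.11 overlapped, and the change was -0.42 (SE 0.14, adjusted p = 0.359). The co-chaperones Hsph1 (-0.47, SE 0.21) and Stip1 (-0.37, SE 0.14) were below 0 as well, and the inducible chaperone Hspa1b was at -0.44 (SE 0.36) with 1-week controls from 8.82 to 11.53. The list medians were -0.165 in KO and -0.34 in WT lungs, and TG minus WT passed for 0 of the 16. At 120 ppm, with the same controls, 5 of the 16 fell in TG lungs (beside 0.222% of all genes), among them Hsph1 (-0.993), Stip1 (-0.76) and Hspb1 (-0.69).

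In the counts that follow, 5.45% of all genes were higher and 3.48% lower at an unadjusted p in TG lungs. Of 23 Nrf2 and glutathione genes, 2 were higher and 0 lower (median -0.00071), namely the quinone reductase Nqo1 (0.32, SE 0.13, adjusted p = 0.444), at 0.048 after 1 week and 0.59 after 4 weeks, and the glutathione transferase Gsta4 (0.22, SE 0.086). In WT lungs 5 of the 23 rose (beside 3.05% of all genes), with Nqo1 higher by 0.58. Of 25 xenobiotic-metabolising enzymes, 1 was higher and 1 lower (median 0.030), the steroid hydroxylase Cyp3a13 at 0.38 (SE 0.13, adjusted p = 0.395) and Cyp1b1 at -0.48 (SE 0.15, adjusted p = 0.34). Cyp2a5, another P450, had the largest value of the list, 0.67 (SE 0.46), and was at -0.47 after 1 week and 1.81 after 4 weeks, with TG animals spread from 5.70 to 9.98. Of 20 sterol and fatty acid synthesis genes, 4 were higher and 0 lower at an unadjusted p (median 0.13, beside -0.058 in KO and 0.27 in WT), with Hmgcs1, on a dim probe set, at 0.26 (SE 0.11) and Sc5d at 0.25 (SE 0.10). Inflammatory cytokines and chemokines had a median of -0.049, 3 of 27 higher and 1 lower, and the neutrophil protein S100a8 was at 0.30 (SE 0.33).

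**Figure D4:**
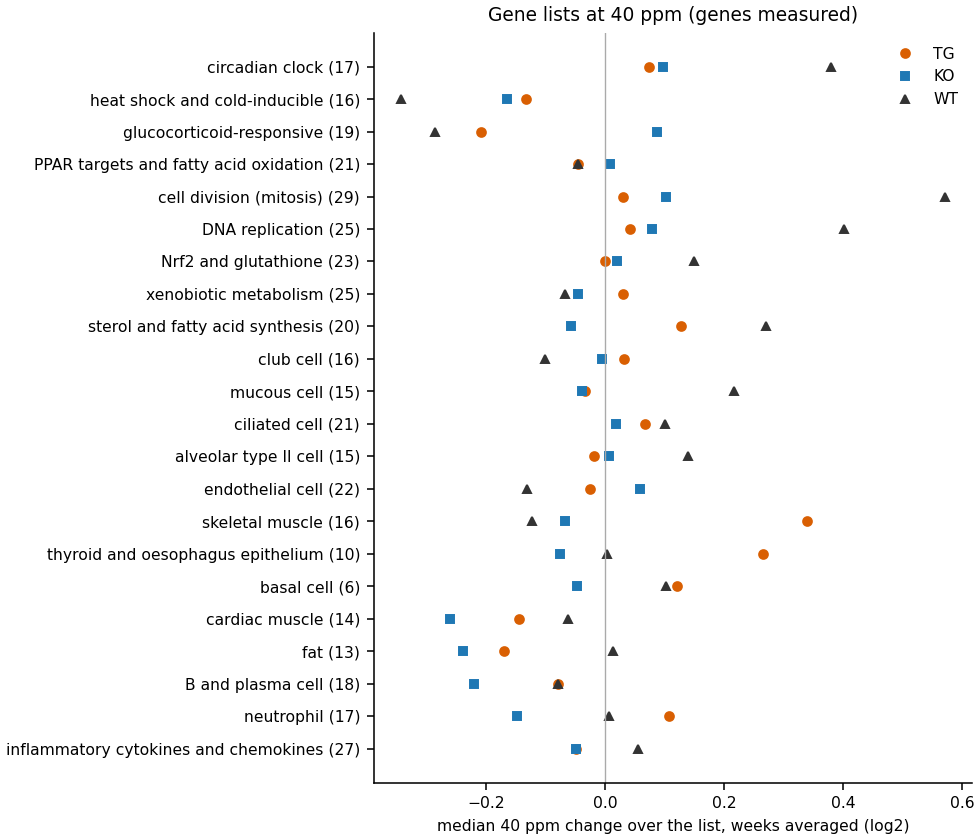
Median change at 40 ppm, weeks averaged (log2), over the measured members of 22 gene lists in TG (circles), KO (squares) and WT lungs (triangles), with the number of genes measured in brackets. Cell division and DNA replication are near 0 in TG and KO and at 0.57 and 0.40 in WT; the TG values of skeletal muscle and of the thyroid and oesophagus epithelium list become -0.064 and 0.011 without TG animal 3 at 40 ppm and 4 weeks.

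Week by week the TG comparison gave 0 called genes after 1 week (757 at an unadjusted p under 0.05, 4.43%, lowest adjusted p = 0.174) and 0 after 4 weeks (1278, 7.47%, lowest adjusted p = 0.22), and the difference between the weeks passed for 0 genes (573, 3.35%). At 1 week Atcayos had the smallest p (-0.49). At 4 weeks Dcaf4, a substrate receptor of a ubiquitin ligase, was at 0.56 and Sdha, a subunit of succinate dehydrogenase, at 0.26. The smallest p of the difference between weeks belonged to Tssk6, a testis kinase that is dim in lung (0.65), Pxdc1 (-0.78) and the basal keratin Krt15 (2.32). Krt15 was highest of the 20 in TG animal 3 at 40 ppm and 4 weeks, at 7.36, followed by animal 5 of that group at 5.89, and the other 18 lay between 3.02 and 4.41.

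TG animal 3 at 40 ppm and 4 weeks also carried transcripts that the lung hardly expresses. Its mean over the skeletal muscle list was 7.29 log2, where the other 19 TG animals lay between 3.45 and 4.18, and its mean over the thyroid and oesophagus epithelium list was 7.02, where they lay between 3.39 and 3.73. Acta1, skeletal muscle actin, measured 11.42 in it and 3.33 to 5.40 in the others, and the keratin Krt13 of the oesophagus lining measured 7.61 and 2.67 to 3.29. Krt5 of basal cells measured 7.60 in it and 3.43 to 4.88 in the others. At 4 weeks 11 of 16 skeletal muscle genes were higher at an unadjusted p with this animal (median 0.93, beside 5.5% of all genes) and 2 without it (median 0.068), and for the epithelium list the counts were 5 and 1 of 10 (medians 0.51 and -0.0068). Basal cell markers had a weeks-averaged median of 0.12 with it and 0.044 without it. In the same way TG control animal 3 at 4 weeks had the highest mean of the fat list, 7.76, and of the B and plasma cell list, 7.10, where the other 19 lay between 5.12 and 6.81 and between 5.43 and 6.13. Its array had a weight of 0.309, so it stayed in when arrays of weight under 0.25 were left out. Jchain, the joining chain of antibodies, was at -0.71 (SE 0.35) with this control at 11.09 and TG control animal 2 at 1 week at 10.48, and the part of these animals in the value was not tested. Cardiac muscle transcripts varied in all groups, with list means from 5.25 to 7.77, and the median change of that list was -0.825 at 1 week and 0.61 at 4 weeks. With either animal left out, 0 genes passed between 40 ppm and control TG lungs.

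**Figure D5:**
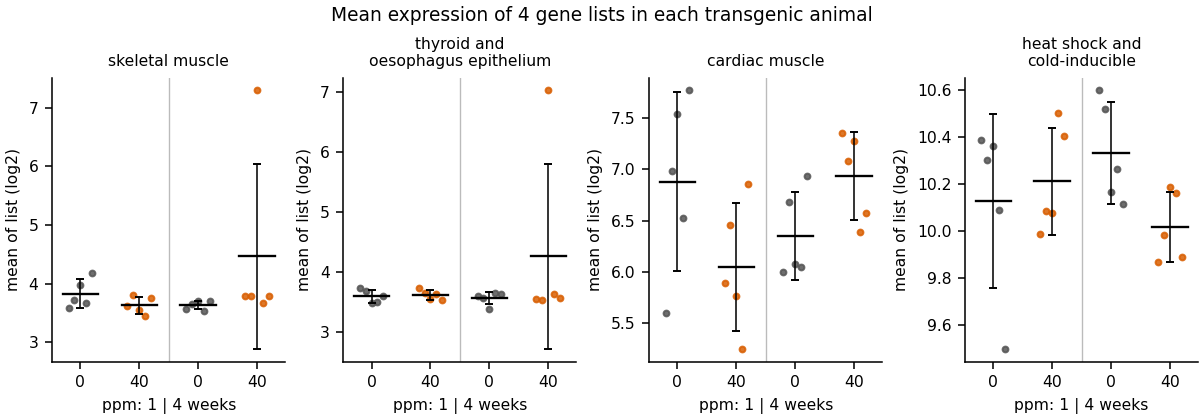
Mean expression (log2) of the skeletal muscle, thyroid and oesophagus epithelium, cardiac muscle, and heat shock and cold-inducible lists in each of the 20 TG animals at 0 and 40 ppm, for 1 week (left of the line) and 4 weeks (right). Points are animals, bars means of 5 and whiskers SD; 1 animal at 40 ppm and 4 weeks stands at 7.29 and 7.02 on the first 2 lists, and 1 control at 1 week stands lowest on the heat shock list at 9.50.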

How the data were processed

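The arrays are Affymetrix HT MG-430 PM, 1 for each mouse. The authors deposited log2 expression values per probe set, made with RMA and Partek per the submitters' processing notes, without versions. Of 45141 probe sets, 28898 had 1 gene symbol and 551 several, and the latter were left out. Each of 17097 genes was represented by its probe set of highest mean, chosen over all 90 arrays, and 16936 matched RefSeq names. A limma fit (version 3.58.1, R 4.3.3) over all 18 groups gave 10 comparisons, with weeks averaged at equal weight, 72 residual degrees of freedom and Benjamini-Hochberg adjustment over all genes of a comparison. A gene was called at an adjusted p under 0.05. The p-values measure the spread between animals, which the labels describe as biological replicates, and the number of arrays limits the precision. The fit was tested on simulated data with the same noise per gene on every array and the same change at both weeks. That test does not cover arrays of unequal weight. Genes were named by size among those called, by smallest p where few or none were called (15 for TG at 40 ppm, 3 elsewhere), and as up to 4 members of each list by size, besides genes that are marked as chosen after their values were seen. The members and lists were chosen with earlier results of these data known. The values of 0 ppm and 40 ppm TG animals were not renormalized.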

Additional observations from a re-analysis of the deposited data

Results flagged for a closer look

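In groups of 5 animals, 524 sets of values from named genes and list means were screened for an animal at the edge of the range that stood apart from the other 4, and 45 were found. Chance alone flags about 5% of such groups when the sets are independent and not picked by their values. Many of these genes were named for the size or p of their change. Means of the lists that hold them were screened as well, so the same animal can be counted repeatedly. The 45 therefore cannot be held against that rate.

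TG animal 3 at 40 ppm and 4 weeks accounted for 17 of the 45. It stood high in the squamous genes Krt4 (12.48 log2), Lor (11.1), Sprr3 (10.23) and Krt13 (7.609), in the basal keratins Krt5 (7.596) and Krt14 (6.001), and in the muscle genes Acta1 (11.42), Tnnc2 (10.36), Tnni2 (9.951) and Mylpf (9.834). Its means over the skeletal muscle list (7.292), the thyroid and oesophagus epithelium list (7.022) and the basal cell list (5.792) were high as well. It also stood apart in Cdc20 (6.02), in the helicase subunit Mcm6 (7.744), in the cell division list (4.896) and in the inflammatory list (4.453).

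TG control animal 3 at 4 weeks stood apart in Gp2 (2.434), Ube2c (6.778), the mitotic kinase Aurkb (5.476), Jchain (11.09) and the mean of the fat list (7.758). Other 4-week controls stood apart in Cdc20 (6.102, animal 4), Chil1 (11.73, animal 1) and Muc1 (10.24, animal 1).

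Among the other exposed animals at 4 weeks, animal 4 stood apart in Mapk8 (7.351) and Wfdc3 (4.984), animal 5 in Scgb3a2 (13.49), and animal 1 in the atrial peptide Nppa (6.963), the glucocorticoid list (8.962) and the B and plasma cell list (6.129). At 1 week and 40 ppm, animal 5 stood apart in Krt15 (4.103), Nppa (6.437) and the sterol list (7.963), animal 1 in Krt13 (3.29) and the neutrophil granule gene Camp (5.146), animal 2 in Aurkb (3.933) and animal 3 in the mucous cell list (4.221). Of the 1-week controls, animal 3 stood apart in Krt4 (2.857), Krt13 (2.933) and Acta1 (4.729), animal 2 in Cyp2f2 (11.63) and the club cell list (9.979), and animal 5 in the DNA replication list (6.21) and the Nrf2 list (8.973).

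The 40 ppm change differed between TG and WT lungs, by the test of the difference itself (limma, adjusted p under 0.05), for 33 of the genes named. A positive value means a higher change in TG. The differences were 2.182 for Asgr1, 1.74 for Pon1, 1.435 for Arntl, 1.224 for Nr4a3, 1.083 for Adm, 0.6006 for Aox3, 0.5136 for L1cam, 0.4475 for Crispld1, 0.4285 for Mapk8, 0.3602 for Utp20, 0.2394 for Cwc15 and 0.2266 for Sdha. Among secreted and epithelial genes they were -2.058 for Gp2, -1.918 for Retnla, -1.863 for Ces1g, -1.812 for Agr2, -1.535 for Ghrl, -1.477 for Wfdc3, -1.16 for Lcn2, -0.491 for Chil1, -0.4469 for Muc1, -0.2305 for Sftpd and -0.2281 for Slc34a2. Among cell cycle genes they were -1.224 for Cdk1, -1.144 for Ube2c, -1.135 for Cdc20, -1.105 for Pbk, -0.9507 for Aurkb, -0.9023 for Cdc6 and -0.6059 for Mcm2. The others were -1.879 for Dbp, -0.4005 for Atcayos and -0.3596 for Mgat4d.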

How the results depend on the processing

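Between 40 ppm and control TG lungs, weeks averaged, 0 genes passed in the limma fit, with requantiling, with dim genes left out, with the median over probe sets, with a trend and robust prior, with a poly-A control covariate and with only the 20 arrays compared (lowest adjusted p from 0.0523 to 0.421). With array weights 134 passed and with arrays of low weight left out 13, and leaving out 1 animal gave 0 to 18 (18 without TG control 1 at 4 weeks, 1 without TG 40 ppm animal 3 at 1 week). At 1 week leave-one-out counts were 0 to 1 (1 without control 3). At 4 weeks array weights gave 73, low weight arrays left out 4, the poly-A covariate 22 and leave-one-out 0 to 1 (1 without control 1). The difference between weeks gave 0 in every setting, and TG minus KO gave 1 with the poly-A covariate and 0 in the others. TG minus WT (153) became 632 under array weights, 250 under the poly-A covariate, 306 with only the arrays compared, and 60 to 222 without 1 animal. It moved by over 1.5 times without each of 14 animals: WT control 2 (60) and TG control 5 (61) at 1 week; WT 40 ppm 3 (60) and 4 (91) and TG 40 ppm 1 (89), 4 (96) and 5 (98) at 1 week; WT control 2 (65) and 4 (92), TG control 4 (74) and 5 (84), WT 40 ppm 4 (75) and 5 (86) and TG 40 ppm 3 (87) at 4 weeks. TG at 120 against 40 ppm gave 19 with array weights and 0 to 1 without 1 animal (1 without 120 ppm animal 4 at 1 week). TG at 120 ppm against air (47) gave 128 with array weights, 30 with only the arrays compared and 28 to 85 without 1 animal (85 without TG control 1 and 28 without 120 ppm animal 5 at 1 week, 30 without TG control 2 at 4 weeks). KO (0) gave 8 with array weights, 3 without low weight arrays and 0 to 3 without 1 animal (2, 3 and 2 without 40 ppm animals 1, 2 and 5 at 4 weeks). WT (653) gave 2345, 1215, 1829 and 1224 under array weights, low weight arrays left out, the poly-A covariate and only the arrays compared, and 442 to 719 without 1 animal. The cause of these shifts was not tested.

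The replicate numbers that groups share in the labels were checked for pairing. Only 3 of 10 same-number pairs of TG control and exposed animals correlated above 0.1 (range -0.277 to 0.234) and 2 of 10 correlated best with their own number. With so few pairs, these correlations cannot tell whether the numbers mark a block. With the replicate block, TG at 40 ppm had 0 called genes (limma, lowest adjusted p = 0.0515, beside 0.124 without it). TG at 120 ppm against air had 78, beside 47 without it, and TG minus WT 218, beside 153.

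Per1 at 40 ppm in TG changed sign, to 0.1034 with array weights, 0.07745 without low weight arrays and 0.08313 with the poly-A covariate, and ranged from -0.09976 to 0.09894 without 1 animal. Nr4a3 in TG minus WT was -0.2539 with the median over probe sets. Of the 26 genes recomputed for TG at 40 ppm, the 15 of smallest p and clock genes among them, and of the 33 called in TG minus WT that the text names, no other reversed. Some TG values at 40 ppm became much smaller in another setting, down to 0.047 for Epb41l5, 0.10 for Exoc6b, 0.13 for Mkks, 0.19 for L1cam and 0.24 for Per3. Other TG values were not recomputed. Of the 33, 15 lost their call without at least 1 animal: Adm, Agr2, Atcayos, Aurkb, Cdc20, Cdc6, Cwc15, Gp2, Mapk8, Mcm2, Nr4a3, Sdha, Sftpd, Slc34a2 and Utp20. Crispld1 lost its call with the median over probe sets (0.27, adjusted p = 0.11). In at least 1 setting with no single animal left out, Adm, Atcayos, Aurkb, Mcm2, Sdha, Sftpd and Utp20 lost theirs too (limma, highest adjusted p between 0.0511 and 0.354).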
